A study of Mus musculus with 6 samples.

Results

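The inhibitory checkpoint genes examined here are 10 genes, chosen by name: Pdcd1, Ctla4, Btla, Lag3, Havcr2, Tigit, Cd160, Cd244, Entpd1 and Tox. All 10 were found by symbol among the 23282 genes listed for each of the 6 samples. They were compared gene by gene in CD4 T cells, between WT mice and AMPK KO mice, with 3 samples per group. AMPK is a kinase that senses a low cellular energy charge, and Prkaa1 encodes its catalytic subunit α1. WT mice were Prkaa1 fl/fl without Cre, and AMPK KO mice were Prkaa1 fl/fl with CD4Cre, both on C57BL/6, so that both groups carry the floxed alleles. The Cre is driven by Cd4, which T cells of the CD8 lineage also switch on as thymocytes, so the deletion is not limited to CD4 T cells. The methods give female mice of 6 to 8 weeks unless otherwise specified. The cells came from lymph nodes and spleen, had a rest of 1 h and then received anti-CD3 and anti-CD28 at 2 µg/mL. The labels give 24 h of stimulation for both groups, whereas the methods give 6 h, and the difference could not be settled from the files. The study describes the samples as biologically independent. It follows PD-1, the protein that Pdcd1 encodes, and reports more PD-1 protein in AMPK-deficient than in WT CD4 T cells. The question here is which checkpoint transcripts differ with the genotype.

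Inhibitory checkpoint receptors are surface proteins that restrain T cells, and several of them appear after activation. PD-1 and BTLA carry tyrosine motifs that recruit phosphatases to the antigen receptor, CTLA-4 competes with CD28 for CD80 and CD86, and TIGIT competes with CD226 for PVR. T cells under persistent stimulation, as in tumours, often carry several of these receptors together, with the nuclear factor TOX and the ectonucleotidase CD39, the product of Entpd1.

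Each WT library held between 9575096 and 10168121 reads, and each AMPK KO library between 10515155 and 11185360. The ribosomal RNA precursor Rn45s took 22.4% ± 2.21 of the reads in WT and 9.89% ± 1.24 in AMPK KO (SD, n = 3). Prkaa1 was at 4.64, 5.24 and 4.86 in WT and at 4.08, 4.72 and 4.67 in AMPK KO. The log2 fold change was -0.43, with an SE of 0.25 and a limma adjusted p of 0.357. It was -0.22 without AMPK KO replicate 1 and -0.26 without WT replicate 2. The groups overlapped, and because the libraries read the 3′ end of transcripts, this value does not check the deletion unless the deleted exon lies there. Transcripts of the sex chromosomes differed with the genotype. Xist, which is expressed from the inactive X chromosome, had 67 reads over the WT samples and 7711 over the AMPK KO samples, and the Y-linked Ddx3y had 10013 and 4826. Y-linked reads in both groups, and few Xist reads in WT, go against the female mice that the methods give. The makeup of the samples in this respect and the genotype cannot be told apart, and its part in the values that follow was not tested.

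Pdcd1 and Havcr2 were higher in AMPK KO, and none of the checkpoint genes was lower by the test, against 3.10% of all tested genes. Of the 10 genes, 8 had a mean log2 value of at least 1 over the 6 samples and were tested, with Lag3 and Tigit below it. Pdcd1 rose 3.23-fold and Havcr2 2.47-fold, so 2 of 8 passed a limma adjusted p of 0.05 in the direction of AMPK KO, against 2.54% of the 11279 genes tested that passed as higher and 5.65% that passed in either direction. Of the 8, 3 had every AMPK KO sample above every WT sample (Pdcd1, Havcr2 and Entpd1), against 11.6% of all tested genes, or 25.6% counting both directions. At an unadjusted p of 0.05, 4 of the 8 passed (Ctla4 and Entpd1 in addition), against 21.3% of all tested genes. The mean was higher in AMPK KO for 6 of the 8, and their median log2 fold change was 0.72, beside 0.015 over all tested genes. The count of 2 fell to 1 under 10 of 14 alternatives and to 0 without AMPK KO replicate 1, and it was 3 without AMPK KO replicate 2. As these are bulk samples, a change in the share of cells carrying a transcript and a change in its amount per cell cannot be told apart.

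**Figure D1:**
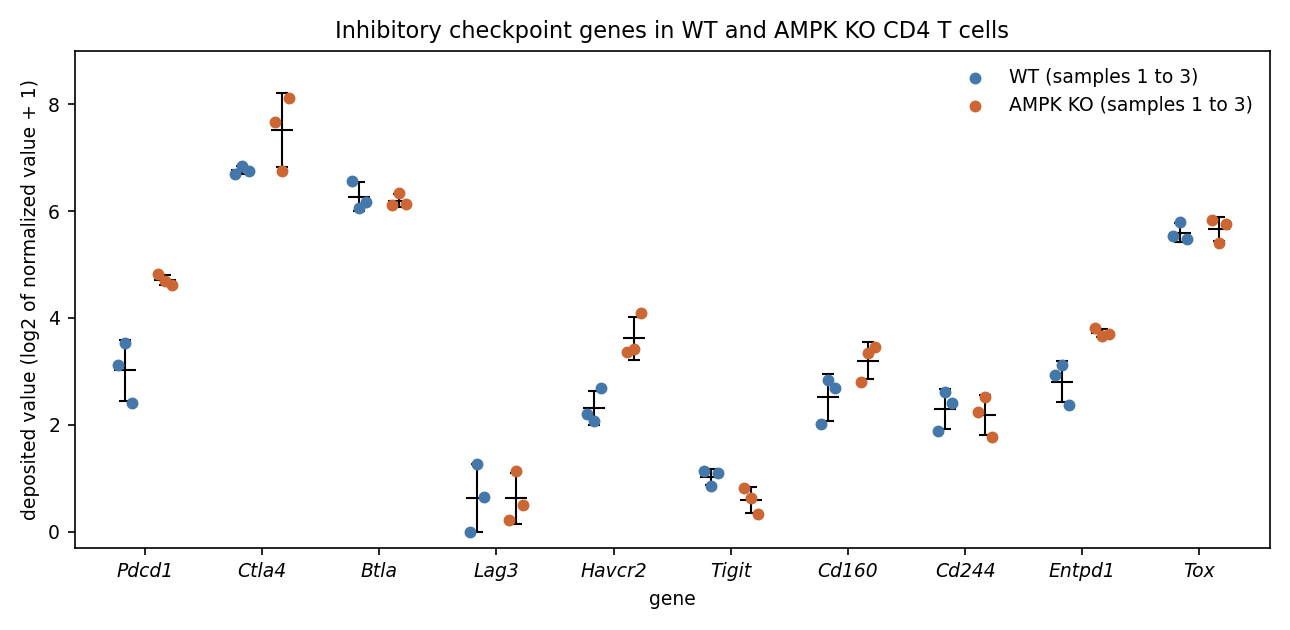
Deposited values (log2 of the normalized value plus 1, vertical axis) of the 10 checkpoint genes in the 3 WT and 3 AMPK KO samples. Points are samples, horizontal bars are means and whiskers are SD. The AMPK KO points of Pdcd1, Havcr2 and Entpd1 lie above all WT points, and those of Tigit below them.

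Promoters of the genes are shown because some members moved and others did not. The RefSeq promoter table used here was matched by symbol for 7 of the 10 genes, and the promoters of Lag3, Cd244 and Tox were not analysed here. The 250 bases before the start are printed 5′ to 3′ on the gene's strand, from the GRCm38.p6 sequence, for Pdcd1 (minus strand, chr1:94052554-94052803) and Havcr2 (plus strand, chr11:46454681-46454930), which were higher, and for Btla (plus strand, chr16:45224087-45224336), which did not pass the test and whose groups overlapped. Capitals mark ACGTG (the core bound by XBP1), CCACG (part of the ER stress response element), TGANTCA (AP-1) and GGAAA (the NFAT core), searched on both strands.
Pdcd1: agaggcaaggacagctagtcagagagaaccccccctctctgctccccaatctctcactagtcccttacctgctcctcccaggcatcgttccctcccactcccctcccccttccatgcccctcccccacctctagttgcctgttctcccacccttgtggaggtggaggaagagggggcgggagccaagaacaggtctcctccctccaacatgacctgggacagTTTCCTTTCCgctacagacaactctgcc
Havcr2: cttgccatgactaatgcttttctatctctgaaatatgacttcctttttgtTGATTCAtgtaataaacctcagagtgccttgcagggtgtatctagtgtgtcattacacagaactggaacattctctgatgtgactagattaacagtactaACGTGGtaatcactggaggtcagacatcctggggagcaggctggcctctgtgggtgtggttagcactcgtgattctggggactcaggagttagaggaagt
Btla: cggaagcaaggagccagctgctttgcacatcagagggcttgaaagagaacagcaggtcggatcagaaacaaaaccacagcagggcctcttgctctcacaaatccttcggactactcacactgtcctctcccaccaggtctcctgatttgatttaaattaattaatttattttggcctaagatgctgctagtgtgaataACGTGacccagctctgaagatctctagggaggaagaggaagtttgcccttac

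The Pdcd1 window held GGAAA on the opposite strand in 2 copies, 23 and 28 bases before the start, and none of the other motifs. The Havcr2 window held 1 ACGTG that overlaps 1 CCACG, about 100 bases before the start, and 1 TGANTCA. The Btla window held 1 ACGTG. Among 32851 mouse promoters of this length, 16.6% held ACGTG, 28.3% CCACG, 6.75% TGANTCA and 55.6% GGAAA. Thus ACGTG was in the window of a gene that rose and of one that did not, and it was also in those of Ctla4 and Tigit. A match describes letters only, and the absence of one in 250 bases says nothing of a factor bound elsewhere. By chromatin immunoprecipitation, the paper reports the spliced form of XBP1 at the PD-1 promoter in CD4 T cells kept in tumour-conditioned medium.

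Pdcd1 encodes PD-1, the receptor for PD-L1 and PD-L2, and lies on the minus strand of chr1:94038305-94052553 (GRCm38). Its values were 3.12, 3.54 and 2.41 in WT and 4.82, 4.70 and 4.62 in AMPK KO, from 71, 106 and 38 reads and 322, 268 and 281 reads. Every AMPK KO sample was above every WT sample, and the WT samples were the more scattered, with WT replicate 3 the lowest. The means were 3.02 ± 0.57 and 4.71 ± 0.10 (SD, n = 3). The log2 fold change was 1.69, with an SE of 0.31, a 95% interval from 1.02 to 2.36 and a limma adjusted p of 0.00669. The exact two-sided permutation test gave p = 0.1, the smallest that 3 against 3 allows. In the order of all tested genes, Pdcd1 ranked 61 by its rise and 130 by its p value. The difference was 1.64 without AMPK KO replicate 1, with a limma adjusted p of 0.0529, and it passed under the other 13 of 14 alternatives.

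**Figure D2:**
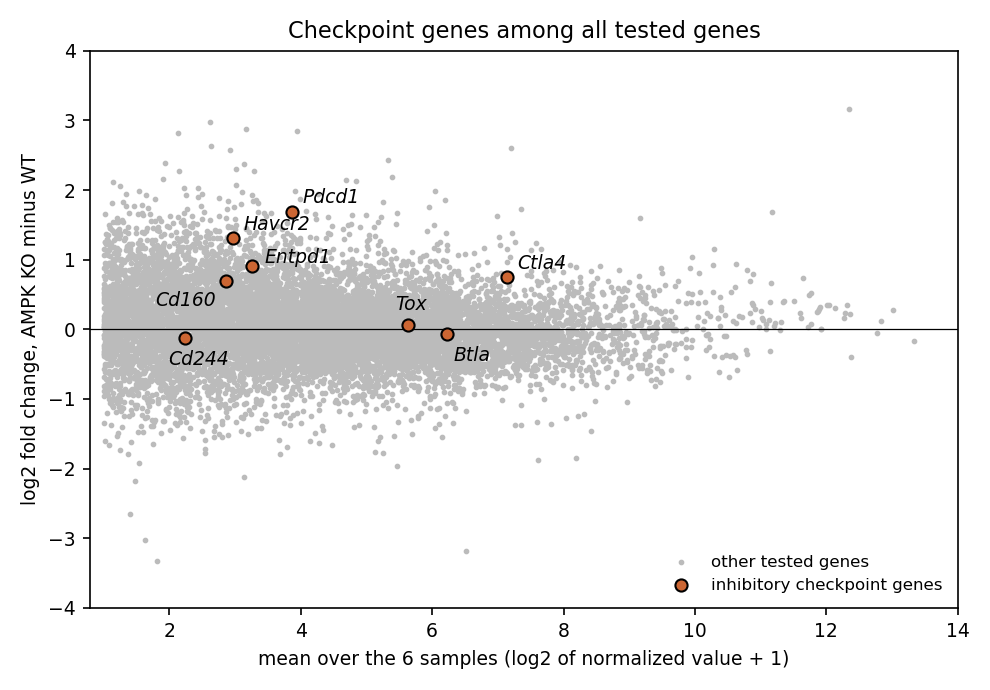
Log2 fold change (AMPK KO minus WT, vertical axis) against the mean log2 value over the 6 samples (horizontal axis) for the tested genes, with the 8 tested checkpoint genes as large points. A further 5 tested genes lie outside the plotted range. Pdcd1, at 1.69, is the highest of the checkpoint genes, and Btla, Tox and Cd244 lie near 0.

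Havcr2 encodes TIM-3, a receptor for galectin-9 and phosphatidylserine on T cells and myeloid cells, and lies at chr11:46454935-46481255 on the plus strand. Its values were 2.20, 2.07 and 2.68 in WT and 3.36, 3.42 and 4.09 in AMPK KO, on 33, 32 and 48 reads against 110, 104 and 190 reads. The groups did not overlap, and AMPK KO replicate 3 was the highest. The means were 2.32 ± 0.32 and 3.62 ± 0.40 (SD, n = 3), a log2 fold change of 1.30 with an SE of 0.35, a 95% interval from 0.55 to 2.06 and a limma adjusted p of 0.0441. That is close to the threshold, and the gene passed under 3 of 13 alternatives, with limma adjusted p values from 0.0310 to 0.175 and a log2 fold change of 1.07 to 1.52. Leaving out any sample other than AMPK KO replicate 2 ended the call.

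Ctla4 encodes CTLA-4, the counterpart of CD28 that restrains T cells. It was at 6.69, 6.85 and 6.76 in WT and at 7.67, 6.75 and 8.12 in AMPK KO. AMPK KO replicate 2 lay within the WT range, while the other AMPK KO samples were above it. The log2 fold change was 0.75 with an SE of 0.25, a 95% interval from 0.21 to 1.29 and a limma adjusted p of 0.0967, and the exact permutation test gave p = 0.3. Single samples decided this value. Without AMPK KO replicate 2 the difference was 1.13 and passed, with a limma adjusted p of 0.000217, and without AMPK KO replicate 3 it was 0.45, with a limma adjusted p of 0.280. Ctla4 did not pass with any of the other 5 samples left out.

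Btla encodes a receptor for the TNF receptor family member HVEM. Its values were 6.57, 6.05 and 6.17 in WT and 6.11, 6.33 and 6.14 in AMPK KO. The log2 fold change was -0.07 with a 95% interval from -0.45 to 0.31 and a limma adjusted p of 0.857. The interval leaves out a rise of the size measured for Pdcd1 or Havcr2. Cd160, a second receptor for HVEM, was at 2.01, 2.85 and 2.68 in WT and 2.81, 3.34 and 3.46 in AMPK KO. The difference on the log2 scale was 0.69, with a 95% interval from -0.10 to 1.47 and a limma adjusted p of 0.302. The groups overlapped, and the difference was 0.44 without WT replicate 1. Exons of Cd160 overlap those of Pdzk1 on the opposite strand, and whether the counting used the strand is not given in the sources used here.

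Cd244 encodes 2B4, the receptor for CD48. It had 25 to 51 reads in each WT sample and 29 to 51 in each AMPK KO sample, and a log2 fold change of -0.12 with a 95% interval from -0.96 to 0.72. Effects within those bounds were not excluded. Lag3, a receptor for MHC class II, had 0, 14 and 5 reads in WT and 2, 13 and 5 in AMPK KO. Scaled to library reads this came to 0.645 CPM (95% exact Poisson interval 0.389 to 1.01) and 0.611 CPM (0.373 to 0.944), with no difference detectable at this depth. Tigit had 11, 8 and 10 reads against 9, 6 and 3, or 0.985 CPM (0.660 to 1.41) and 0.550 CPM (0.326 to 0.870). On the log2 scale the AMPK KO samples of Tigit were all below the WT samples, with a difference of -0.43 and an exact permutation p of 0.1, the smallest possible. The intervals overlap, and they cover counting error only.

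Entpd1 encodes CD39, which hydrolyses extracellular ATP and ADP on the way to adenosine. Its values were 2.93, 3.12 and 2.37 in WT and 3.81, 3.66 and 3.70 in AMPK KO, with every AMPK KO sample above every WT sample. The log2 fold change was 0.92 with an SE of 0.32, a 95% interval from 0.23 to 1.60 and a limma adjusted p of 0.113, so it did not pass. It did not pass under any of 14 alternatives either, with log2 fold changes from 0.70 to 1.07. Tox, a nuclear factor of persistently stimulated T cells, was at 5.53, 5.80 and 5.47 in WT and 5.83, 5.40 and 5.76 in AMPK KO. The difference on the log2 scale was 0.06, with a 95% interval from -0.34 to 0.47 and a limma adjusted p of 0.888. Its exons overlap those of the antisense gene Gm11802.

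**Figure D3:**
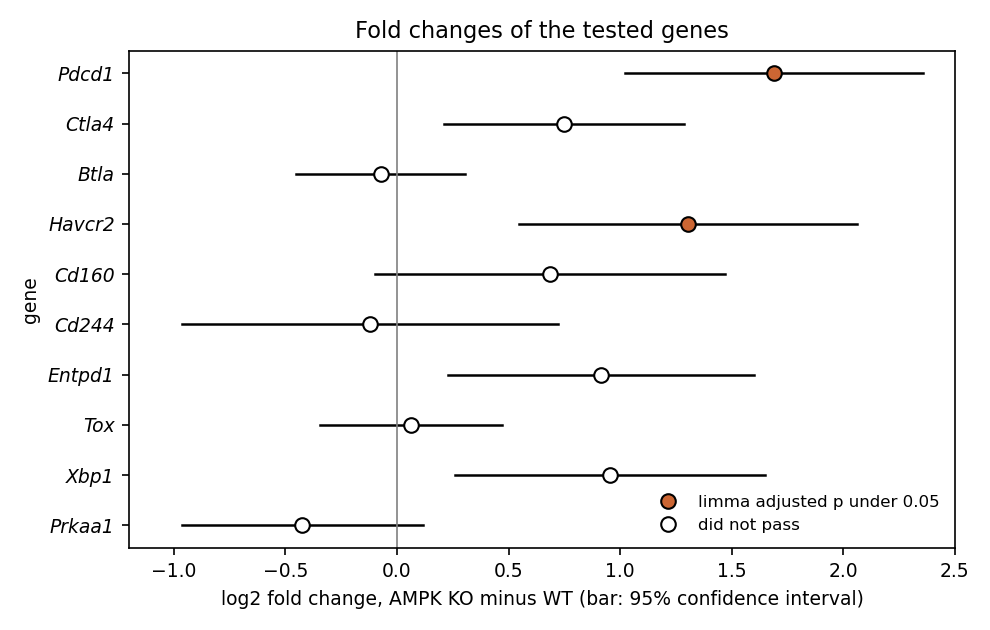
Log2 fold changes (AMPK KO minus WT, horizontal axis) of the 8 tested checkpoint genes, Xbp1 and Prkaa1, with 95% confidence intervals from limma as bars. Filled points passed an adjusted p of 0.05, and these were Pdcd1 and Havcr2 only. The intervals of Btla, Tox, Cd244, Cd160 and Prkaa1 include 0.

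Across the 6 samples, the genes with the profile most like that of Pdcd1, by the root mean square difference of mean-centred log2 values, were Cdkn2a (0.163), Mdfic (0.176) and Chac1 (0.197). Cdkn2a encodes cell cycle inhibitors and Chac1 a glutathione-degrading enzyme of the stress response. These genes were chosen for their likeness to Pdcd1 over the same samples, so a rise near its own was set by the choice. Cdkn2a had a log2 fold change of 1.66 (limma adjusted p = 0.0461), on 9, 14 and 0 reads in WT and 65, 50 and 37 in AMPK KO. Mdfic had one of 1.51 (limma adjusted p = 0.0377), while Chac1, at 1.38, had a limma adjusted p of 0.0556 and did not pass. Among 11278 genes compared, Entpd1 stood at rank 93, Xbp1 at 540, Havcr2 at 706, Cd160 at 1306, Ctla4 at 1367, Tox at 3632, Btla at 5747 and Cd244 at 6471. Xbp1, a transcription factor of the ER stress response, was at 3.99, 4.98 and 4.10 in WT and 5.56, 4.58 and 5.80 in AMPK KO. Its log2 fold change of 0.96 had a limma adjusted p of 0.101 and the groups overlapped. By real-time PCR, the paper reports higher total and spliced Xbp1 transcripts in AMPK-deficient CD4 T cells. Xbp1 passed without WT replicate 2 (1.27, limma adjusted p = 0.0347) and without AMPK KO replicate 2 (1.32, limma adjusted p = 0.0057).

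The ligands of these receptors moved in both directions. Of 14 ligand genes, 10 were tested, 2 rose and 1 fell, with a median log2 fold change of 0.26. Over all tested genes, 2.54% rose and 3.10% fell, and the counts in this and the next lists are to be read beside these shares. Cd86, the ligand of CD28 and CTLA-4 on antigen-presenting cells, rose by 1.27 (limma adjusted p = 0.00212), and Lgals3, a galectin that binds LAG-3, rose by 0.89 (limma adjusted p = 0.0143). Pvr, the ligand of TIGIT and CD226, fell by 0.75 (limma adjusted p = 0.0268). Cd274, which encodes PD-L1, was at 6.72 ± 0.26 in WT and 6.18 ± 0.32 in AMPK KO (SD, n = 3) and did not pass (limma adjusted p = 0.114). Of 13 signalling genes that act below the receptors, 12 were tested and 0 passed by limma, also by voom, while 6 had an unadjusted p under 0.05, 2 higher and 4 lower in AMPK KO, against 21.3% of all tested genes. Their log2 fold changes ran from -0.67 for the adaptor Dok2 to 1.22 for the adaptor Sh2d1b1.

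Among 12 other inhibitory receptors, 1 passed, beside 5.65% of all tested genes, and the list had a median log2 fold change of 0.016. Lilrb4a, an inhibitory receptor of myeloid and some lymphoid cells, rose by 1.68 (limma adjusted p = 0.000476). Of 8 costimulatory counterparts, 1 rose and 2 fell. Tnfrsf9, which encodes 4-1BB, rose by 0.72 (limma adjusted p = 0.0245), Cd40lg fell by 1.76 (limma adjusted p = 0.00296), and Cd28 fell by 0.56 (limma adjusted p = 0.0470) but did not pass by voom. Of 12 adenosine pathway genes, 9 were tested and 0 passed by limma or voom, and 0 had an unadjusted p under 0.05. Their log2 fold changes ran from -0.50 for Entpd5 to 0.78 for Ada, the adenosine deaminase.

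Of 20 transcription factors of T cell activation and exhaustion, 19 were tested and 2 passed, beside 5.65% of all tested genes. Both of these were lower in AMPK KO, but 12 of the 19 had a higher mean, and 8 had an unadjusted p under 0.05 (6 higher and 2 lower), beside 21.3% of all tested genes. Tcf7, which encodes TCF-1, a factor of naive and stem-like T cells, fell by 1.66 (limma adjusted p = 0.000719), from 5.37, 5.28 and 5.27 in WT to 3.79, 3.54 and 3.60 in AMPK KO. Bach2, a repressor of effector genes, fell by 0.80 (limma adjusted p = 0.0460) and did not pass by voom. The median of the 19 was 0.24. Of 12 early activation genes, 11 were tested, 2 rose and 2 fell. Ifng rose by 1.70 (limma adjusted p = 0.0231) and the transferrin receptor gene Tfrc by 0.71 (limma adjusted p = 0.0286), whereas Egr3 fell by 1.34 (limma adjusted p = 0.000719) and Egr1 by 0.76 (limma adjusted p = 0.00592).

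Marker transcripts of other cells moved with the genotype beside these results. Of 15 macrophage and monocyte markers, 14 were tested, 8 rose (Apoe, Csf1r, Cd68, Vcam1, C1qa, C1qb, C1qc and Cd14), and all 14 had a higher mean in AMPK KO. Their normalized values summed to 741, 658 and 656 in WT and to 1367, 2147 and 1126 in AMPK KO. The sum of every AMPK KO sample was above that of every WT sample. The same held for the values of Pdcd1, of Havcr2 and of 11.6% of all tested genes. Within AMPK KO, the sum was highest in replicate 2, Pdcd1 in replicate 1 and Havcr2 in replicate 3. Whether these values are linked was not tested. By voom, 7 of the 8 passed, all but Apoe. Jchain, of the plasma cell markers, rose by 2.60 (limma adjusted p = 5.77e-08). Its normalized values lay between 56.1 and 63.4 in WT and between 327 and 392 in AMPK KO. It was the 1 of 7 tested plasma cell markers that passed, but the mean was higher in AMPK KO for 6 of the 7, and the median of the 7 log2 fold changes was 0.83. At an unadjusted p under 0.05, 4 of the 7 were higher and 0 lower, beside 21.3% of all tested genes in either direction. Of the 7, 4 had every AMPK KO sample above every WT sample, beside 11.6% of all tested genes, or 25.6% counting both directions. The list summed to 214 to 278 in WT and 566 to 574 in AMPK KO. Without Jchain the sums were 156 to 214 and 177 to 239, and they include Irf4, which activated T cells also express. Irf4, Prdm1 and Xbp1 are in the list of T cell activation and exhaustion factors as well. Their differences were -0.35, 0.54 and 0.96 (limma adjusted p = 0.294, 0.325 and 0.101).

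The cells are labelled CD4 T cells, and Cd4 was at 6.69 ± 0.15 in WT and 6.33 ± 0.20 in AMPK KO (SD, n = 3). Cd3g and Cd3e fell, by 0.93 (limma adjusted p = 0.00579) and 0.66 (limma adjusted p = 0.0239), and the 12 T cell markers summed to 2820 to 2945 in WT and 2249 to 2703 in AMPK KO. Cd8b1 was at 7.45 ± 0.25 and 7.83 ± 0.21 (SD, n = 3), so transcripts of CD8 T cells were present in both groups, with a sum of 231 to 305 in WT and 321 to 376 in AMPK KO. NK cell markers summed to 86.6 to 124 and 127 to 147 in normalized values, with a higher mean in AMPK KO for 7 of the 8 tested and a median log2 fold change of 0.41. Among the NK markers below the filter, Ncr1 was at 0, 1.00 and 1.65 in WT and at 0, 0 and 0.67 in AMPK KO, a difference of -0.66. Dendritic cell markers summed to 35.6 to 41.5 and 46.6 to 69.3, so that the macrophage and monocyte, plasma cell, CD8, NK and dendritic sums were each higher in every AMPK KO sample than in any WT sample. The sums overlapped for B cell markers (333 to 363 and 322 to 398) and regulatory T cell markers (438 to 470 and 366 to 460). By limma and by voom, 0 of the NK, B, dendritic and CD8 markers passed, and 2 of 8, 1 of 11, 0 of 6 and 2 of 2 tested had an unadjusted p under 0.05, beside 21.3% of all tested genes. Their log2 fold changes ran from -1.09 (Prf1) to 1.03 (Klre1), from -0.48 (Fcer2a) to 0.58 (Ebf1), from -0.31 (Siglech) to 0.97 (Flt3) and from 0.34 (Cd8a) to 0.38 (Cd8b1). Of 9 regulatory T cell markers, 1 passed by limma, Gpr83, which fell by 1.38 (limma adjusted p = 0.0394), and 0 passed by voom. Pdcd1, Havcr2, Entpd1 and Cd86 are also transcribed in some of these cells, and the part of other cells in their values was not tested.

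**Figure D4:**
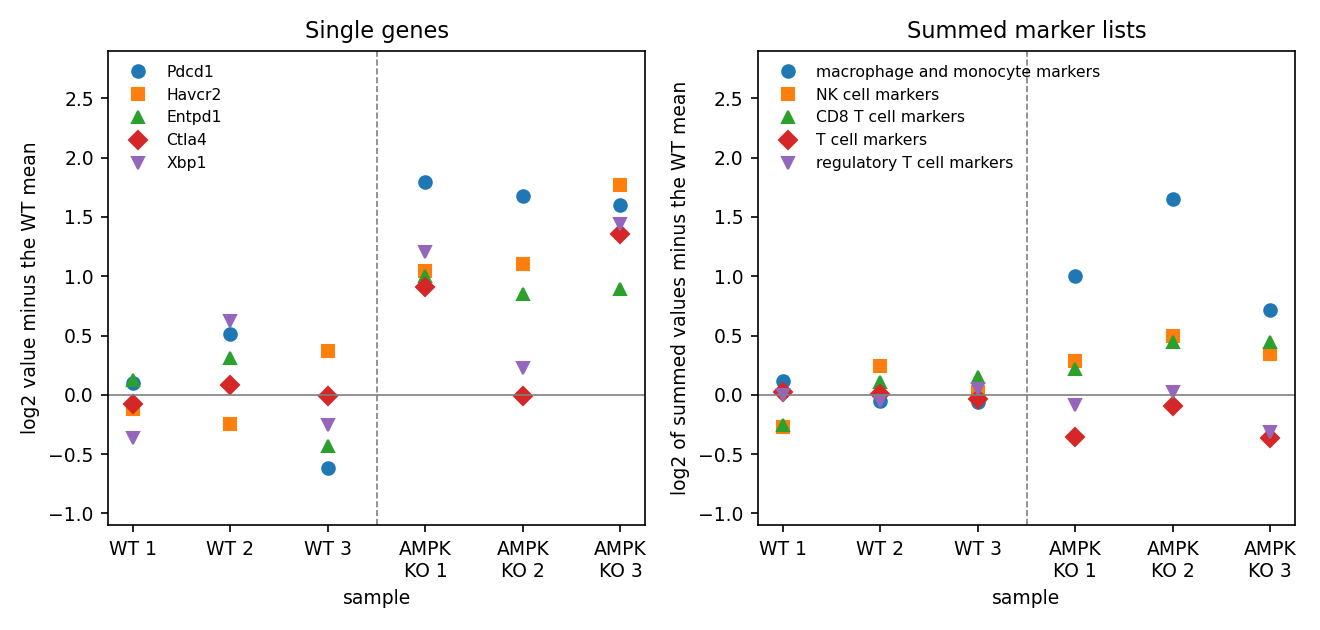
Left, deposited log2 values of Pdcd1, Havcr2, Entpd1, Ctla4 and Xbp1 in each sample, minus the WT mean of each gene. Right, log2 of the summed normalized values of 5 marker lists in each sample, minus the WT mean of each list. Pdcd1, Havcr2 and Entpd1, and the sums of the macrophage and monocyte, NK cell and CD8 T cell markers, are higher in each AMPK KO sample than in any WT sample.

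**Figure D5:**
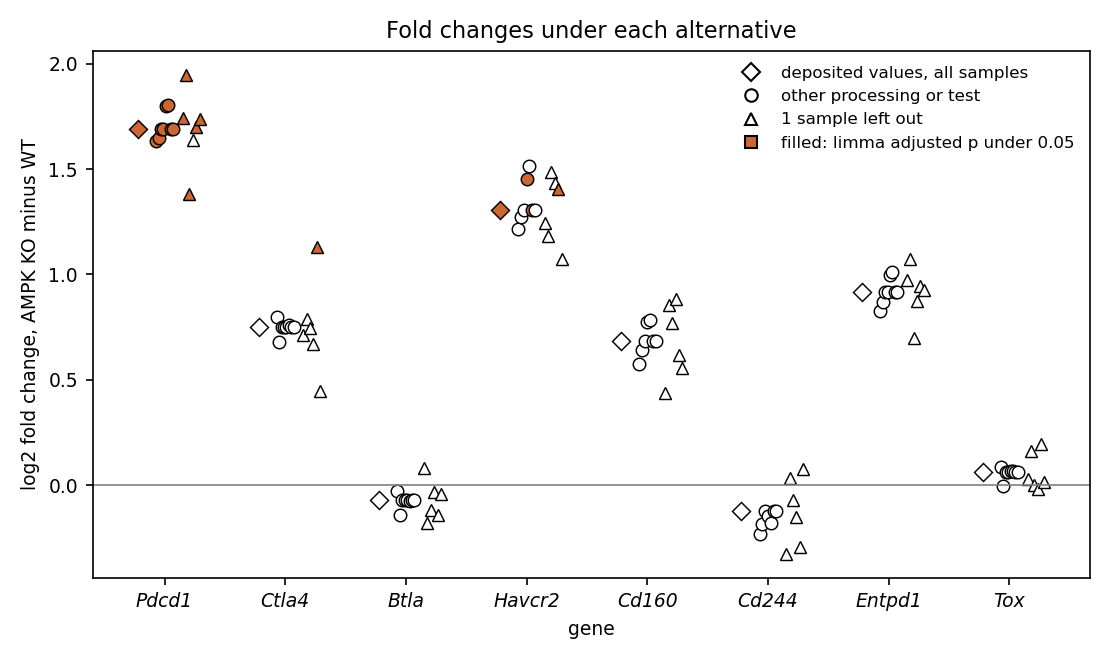
Log2 fold changes (AMPK KO minus WT, vertical axis) of the 8 tested checkpoint genes in all samples (diamonds), under other processing or tests (circles) and with 1 sample left out (triangles). Filled symbols passed a limma adjusted p of 0.05. Pdcd1 ranged from 1.38 to 1.95, and Btla, Cd244 and Tox had values on both sides of 0.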

How the data were processed

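RNA of the 6 samples was made into QuantSeq 3′ libraries from 500 ng of total RNA. The deposited values are log2, made by the authors from TMM and CPM normalization with 1 added. Per the labels, the processing notes name Bowtie2, bedtools and mm10. Up to 100 reads, 100% of values lay within 0.1 of whole reads, so reads and depths were recovered. Pairs of replicates differed by 9.52 to 23.7 times counting variance over 10543 genes, so no sample was a copy.

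Genes whose mean reached 1 (11279) were tested on the deposited values with lmFit and eBayes (trend) of limma 3.58.1 in R 4.3.3, on genotype only, two-sided, with Benjamini-Hochberg adjustment and a threshold of 0.05, after a test on simulated data. Fold changes are on the log2(value + 1) scale and understate those of low genes. Beside the 10 genes, the text names Prkaa1, Xbp1, the members of each list that passed (otherwise those with the largest and smallest fold change) and the 3 profiles nearest to Pdcd1. Cd274, Cd4, Irf4, Prdm1, Ncr1, Xist, Ddx3y and Rn45s were named after their values were seen. List genes were matched by symbol, or by an older symbol that is not now another gene's. The genes and lists were chosen with earlier results of these data known. Loci came from GENCODE vM21 (GRCm38) and promoters from RefSeq. The 14 alternatives are given in the closing section.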

Additional observations from a re-analysis of the deposited data

How the results depend on the processing

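Pdcd1 kept its direction under all 14 alternatives, with log2 fold changes from 1.38 to 1.95 and limma adjusted p values from 0.00292 to 0.0529. With 1 sample left out the range was also 1.38 to 1.95, and the call was lost only without AMPK KO replicate 1, at 1.64. The number of checkpoint genes called was 1 in place of 2 with quantile normalization, scaling to reads outside Rn45s, no filter on low values, a mean of at least 3, voom on recovered reads and the replicate block, and 0 to 3 with 1 sample left out. With the mean of at least 3, Havcr2, Cd160 and Cd244 were not tested. The count of genes called was 637, but 308 without a filter, 102 with the replicate block and 127 to 1243 with 1 sample left out, the highest being without AMPK KO replicate 2. The other counts were 539 to 738. Scaling to reads outside Rn45s called 722, of which 32.5% were higher in AMPK KO in place of 45.1%.

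Havcr2 was 1.22 with quantile normalization, 1.27 scaled outside Rn45s, 1.30 without a filter and with the replicate block, and 1.52 by voom, none of which passed. Ctla4 ran from 0.45 to 1.13, Cd160 from 0.44 to 0.88 and Prkaa1 from -0.56 to -0.22 over their alternatives. With 1 sample left out, Btla ran from -0.18 to 0.081, positive without WT replicate 1, Cd244 from -0.33 to 0.078, positive without WT replicate 2 (0.03) and AMPK KO replicate 3, and Tox from -0.018 to 0.19, negative without WT replicate 3 (-0.0013) and AMPK KO replicate 1. Tox was also -0.0047 scaled outside Rn45s. The sizes of these reversed values were below their SE. The cause was not tested in any of these cases.

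Samples with the same replicate number correlated at -0.225, -0.532 and -0.307 in their deviations from the group means over 6143 genes. Deviations within a group cancel each other, so these correlations cannot decide whether samples of the same number belong together. With the replicate block the limma adjusted p was 0.0480 for Pdcd1 and 0.122 for Havcr2. No sample correlated best with its own number. Across the genotypes, the positive correlations were those of WT replicate 2 with AMPK KO replicates 1 (0.335) and 3 (0.456), and of AMPK KO replicate 2 with WT replicates 1 (0.322) and 3 (0.342). Xbp1 was higher in WT replicate 2 and AMPK KO replicates 1 and 3 than in the other samples of their groups. Counts of 0 to 14 reads in a sample limit Lag3 and Tigit.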
